A study of Drosophila melanogaster with 6 samples.

Results

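Gpdh1 encodes the cytosolic glycerol 3-phosphate dehydrogenase of *Drosophila melanogaster*. Its transcript signal was described here from 1 probe set out of 18769 on the array that are not controls. The probe set was chosen by its ID (Affymetrix ID.1616608_a_at). It is the 1 of 4 probe sets annotated to Gpdh1 whose ID ends in _a_at, and is called the _a_at probe set of Gpdh1 here. The other 3 end in _at. Signals were compared between 3 pools of err1/err2 larvae and 3 pools of w1118 larvae, with 1 single-colour Affymetrix array per pool. The err1/err2 larvae carried 1 mutant allele of the estrogen-related receptor gene ERR on each chromosome copy. Per the labels they came from a cross of err1/TM3,tw-GFP with err2/TM3,twGFP parents, and they were sorted under a fluorescent microscope. The w1118 larvae had w1118 parents, were sorted under a light microscope and served as wild type. Both genotypes were whole mid-second-instar larvae, collected 36 hours after hatching and raised on yeast paste at 25 °C. The stocks may also differ in genetic background, which cannot be told apart from the err alleles in this design.

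Gpdh1 uses NADH to reduce dihydroxyacetone phosphate, an intermediate of glycolysis, to glycerol 3-phosphate, and so returns NAD+ to the cytosol. Glycerol 3-phosphate can be oxidised again at the mitochondrial membrane, which closes the glycerol phosphate shuttle, or it can become the backbone of triglycerides and phospholipids. In insects this enzyme is abundant in muscle and fat body. ERR is the single *Drosophila* member of the estrogen-related receptors, a family of nuclear receptors, and is known for its part in the expression of genes of carbohydrate metabolism in larvae.

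Values are MAS5 signals, the summary that the Affymetrix algorithm gives for a probe set. They have no physical unit and were scaled by the authors to the same trimmed mean on each array. Median signals of the 6 arrays were 93.8, 109.9 and 98.4 in err mutant pools 1, 2 and 3, against 85.6, 88.9 and 83.1 in wild type pools 1, 2 and 3. Every mutant median thus lay above every wild type median. Dim control probe sets gave each array a background line, at signals of 38.9 to 106.6. Log2 signals correlated at 0.934 to 0.965 across probe sets within a genotype and at 0.897 to 0.943 between genotypes, as a description across probe sets, which are not independent. The probe set annotated to ERR itself read 100.1, 157.5 and 85.3 in the err mutant pools, against 94.4, 100.7 and 121.3 in the wild type pools. These values overlapped (log2 fold change 0.07 ± 0.28, SE, limma adjusted p = 0.894), and the sign of the difference changed with the scaling. What the alleles do to the transcript is not given in the sources used here, so this probe set does not check the genotypes.

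Gpdh1 signal was lower in err mutant larvae, at little more than 50% of the wild type level. The _a_at probe set read 10725, 9941 and 11505 in err mutant pools 1, 2 and 3, against 21853, 19792 and 17600 in wild type pools 1, 2 and 3. All mutant arrays lay below all wild type arrays, and the lowest wild type array was 1.53 times the highest mutant array. Its signal averaged 10724 ± 782 in the mutant, against 19749 ± 2127 in wild type (SD, n = 3 each), with coefficients of variation of 7.29% in the mutant and 10.8% in wild type. Gpdh1 fell 1.84-fold, a log2 fold change of -0.88 ± 0.11 (SE, 95% interval -1.13 to -0.63), with a limma adjusted p of 0.00152 over 13138 tested probe sets. An exact 2-sided permutation test on this probe set alone gave p = 0.1, the smallest that 3 arrays against 3 allow. By the means of log2 signals, the mutant level was 54.4% of wild type.

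The call stands against a background in which many probe sets differed. Of the tested probe sets 13.5% were called at a limma adjusted p below 0.05, 6.13% lower and 7.37% higher in the mutant. This split depends on the scaling. Rises made up 54.6% of the calls as deposited, 35.7% with arrays centred on their hybridization controls and 29.1% with arrays centred on their medians. Groups without overlap were seen in 14.6% of the tested probe sets with the mutant lower and in 19.1% with the mutant higher. By p, Gpdh1 came at place 302, and 4.03% of the tested probe sets had a larger fitted fall. Among the brightest 2% of tested probe sets, the smallest whole percentage that holds Gpdh1, 20 of 263 were called (7.6%), 18 lower (6.84%) and 2 higher (0.76%). The 4 probe sets nearest to Gpdh1 in mean signal had no call in either direction, which says little where 7.6% were called. RNA came from whole larvae, so fewer Gpdh1-expressing cells and less Gpdh1 RNA per cell cannot be told apart.

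**Figure D1:**
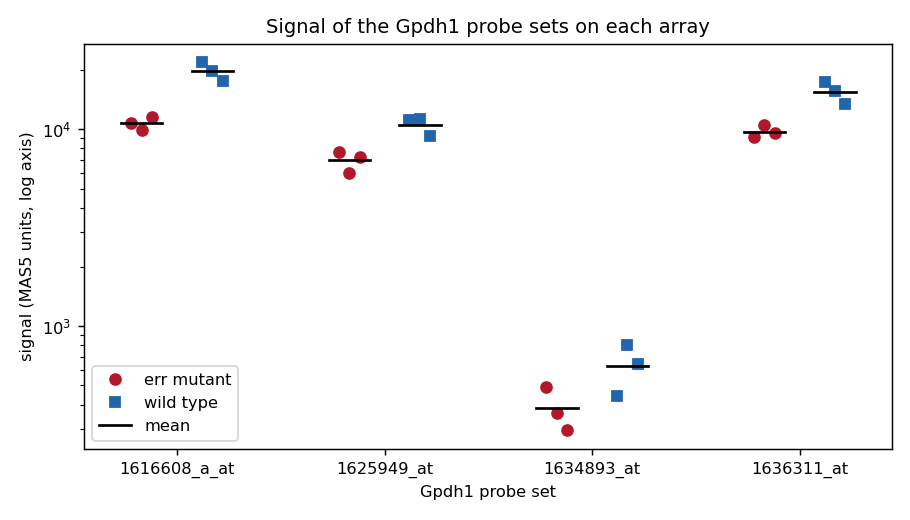
Signal of the 4 probe sets annotated to Gpdh1 (MAS5 units, log axis) on each err mutant array (circles, left of each pair) and each wild type array (squares, right), with bars at the means. For the _a_at probe set the mutant arrays sit between 9941 and 11505 and the wild type arrays between 17600 and 21853, while in the dimmest probe set the genotypes overlap.

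The other probe sets of the gene gave the same direction, with 2 of 3 past the threshold. The second brightest probe set of the gene read 9119, 10533 and 9534 in the mutant, against 17356, 15702 and 13472 in wild type. Its groups did not overlap, and its log2 fold change was -0.67 ± 0.12 (SE, limma adjusted p = 0.0075). The third brightest read 7704, 5971 and 7195 in the mutant, against 11110, 11221 and 9287 in wild type. It fell by 0.60 ± 0.13 on the log2 scale (limma adjusted p = 0.0158), again with no overlap, and its call was lost without wild type replicate 1 or 2. The dimmest probe set was far dimmer, at 489, 362.7 and 295.7 in the mutant and 444.1, 800.6 and 641.3 in wild type. Here err mutant pool 1 lay above wild type pool 1, and the difference of -0.71 ± 0.25 (log2, SE) did not pass the test (limma adjusted p = 0.107). All arrays of all 4 probe sets lay above the background line.

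The 4 probe sets were not equal in the size of the change. When each array was centred on the _a_at probe set and all probe sets were fitted again, the third brightest fell less than it, by 0.28 ± 0.10 on the log2 scale (SE, limma adjusted p = 0.0303). For the second brightest the difference was 0.21 ± 0.10 (limma adjusted p = 0.0855) and for the dimmest 0.17 ± 0.29 (limma adjusted p = 0.593), neither past the threshold. In this relative fit, values of every probe set share the noise of the _a_at probe set. Of all probe sets 74.5% differed from it, 0.806% by falling more and 73.7% by falling less or rising. The ID suffix "_a" marks on this platform a probe set that reads several transcripts of 1 gene. Gpdh1 is known for isozymes made by alternative splicing at the 3' end. Which of its 6 RefSeq transcripts each probe set reads was not analysed here. RefSeq also places a long non-coding RNA gene, lncRNA:CR44986, where it overlaps the span of Gpdh1.

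Among all probe sets of an array, Gpdh1 was one of the brightest in both genotypes and stood lower in the order in the mutant. On err mutant arrays 1, 2 and 3 its signal ranked 273, 285 and 241 of 18769, against ranks of 91, 94 and 77 on wild type arrays 1, 2 and 3. The ranks averaged 266 ± 22.7 in the mutant, against 87.3 ± 9.07 in wild type (SD, n = 3), without overlap. In the mutant 1.28% to 1.51% of probe sets were brighter, and in wild type 0.405% to 0.495%. A rank does not depend on a scaling factor for the array, but it does depend on the other bright transcripts. Gpdh1 reached 39.0% to 43.4% of the brightest signal on the mutant arrays and 68.0% to 72.1% on the wild type arrays. It was 90.5 to 117 times the array median in the mutant and 212 to 255 times in wild type. Probe sets differ in how well they bind, so an order of signals is not an order of transcript numbers.

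**Figure D2:**
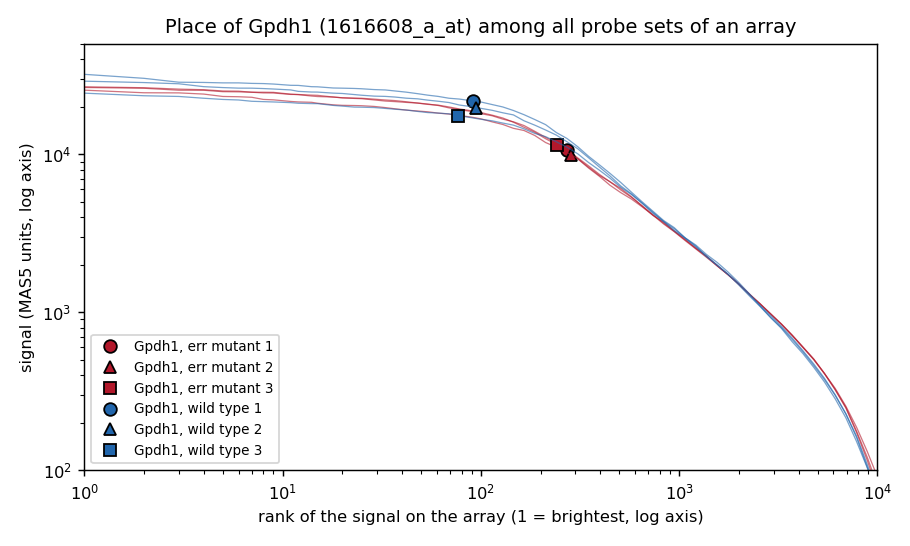
Signal against its rank on each array (both log axes; 1 is the brightest), with a line per array and a symbol for Gpdh1, err mutant in red and wild type in blue. The mutant symbols sit at ranks 241 to 285 and the wild type symbols at ranks 77 to 94, on curves that run close together.

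Gpdh1 was next set beside 14 control probe sets whose IDs name GAPDH, Act5C or eIF-4a, fitted in the same model with the controls added. GAPDH, glyceraldehyde 3-phosphate dehydrogenase, is another NAD-dependent enzyme of glycolysis, but RefSeq also lists GAPDH among the older names of Gpdh1. Act5C is a cytoplasmic actin, and eIF-4a is an RNA helicase of translation initiation. In this fit 6.16% of the probe sets were called lower and 7.36% higher. Of the 7 controls named GAPDH 6 were called lower. Some of these carry "r2" in their IDs and ran with Gpdh1 (below), so they are not taken as readings independent of it. Of the 4 Act5C controls and the 3 eIF-4a controls none were called, although the 2 Act5C controls at the 5' end had an unadjusted p of 0.00953 and 0.0138. Those 2 were called lower when arrays were centred on the median, the hybridization controls or eIF-4a. The eIF-4a control at the 3' end read 18034, 15344 and 16625 in the mutant, against 14906, 18111 and 15050 in wild type, with overlap. Its log2 fold change was 0.06 ± 0.11 (SE) and turned negative after median or hybridization-control centring. The Act5C control at the 3' end read 18920, 16598 and 20064 in the mutant, against 22093, 19153 and 16063 in wild type. It also overlapped, with a log2 fold change of -0.04 ± 0.13 that turned positive after quantile normalization.

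Within arrays, Gpdh1 fell relative to every eIF-4a and Act5C control in the fit centred on Gpdh1. The same held for 73.7% of all probe sets in that fit, so it does not set these controls apart. The change of Gpdh1 relative to a control is given as err mutant minus wild type of the within-array log2 difference. Against the 3 eIF-4a controls it was -0.94, -0.98 and -0.79 at the 3' end, 5' end and middle, with limma adjusted p of 7.56e-05, 5.30e-05 and 3.54e-05. Against the Act5C controls at the 3' end and middle it was -0.84 and -0.77, with limma adjusted p of 1.43e-05 and 4.40e-05. Against the 2 at the 5' end it was smaller, at -0.39 and -0.45 (limma adjusted p = 0.00518 and 0.00134). In each of these the arrays of the genotypes did not overlap. The exact permutation p was 0.1 for each, the smallest possible, and 0.127 after Benjamini-Hochberg adjustment over the 14 controls compared.

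The 3' to 5' ratios of Act5C and of the first GAPDH family did not overlap between the genotypes. The ratio of 3' to 5' signal of Act5C was 2.17 ± 0.17 in the mutant, against 1.58 ± 0.05 in wild type (SD, n = 3 each), and for the first GAPDH family the mutant had 1.87 ± 0.08, against 1.35 ± 0.13 in wild type. The r2 GAPDH ratio lay the other way and overlapped, at 16.7 ± 5.43 in the mutant, against 22.8 ± 4.97 in wild type. For eIF-4a the mutant had 3.01 ± 0.23, against 3.10 ± 0.33 in wild type, also with overlap. The exact permutation p was 0.1 for Act5C and for the first GAPDH family, 0.3 for the r2 GAPDH family and 0.8 for eIF-4a. Where on the Gpdh1 transcripts its probe sets lie was not analysed here, and the part of this ratio in the Gpdh1 difference was not tested.

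**Figure D3:**
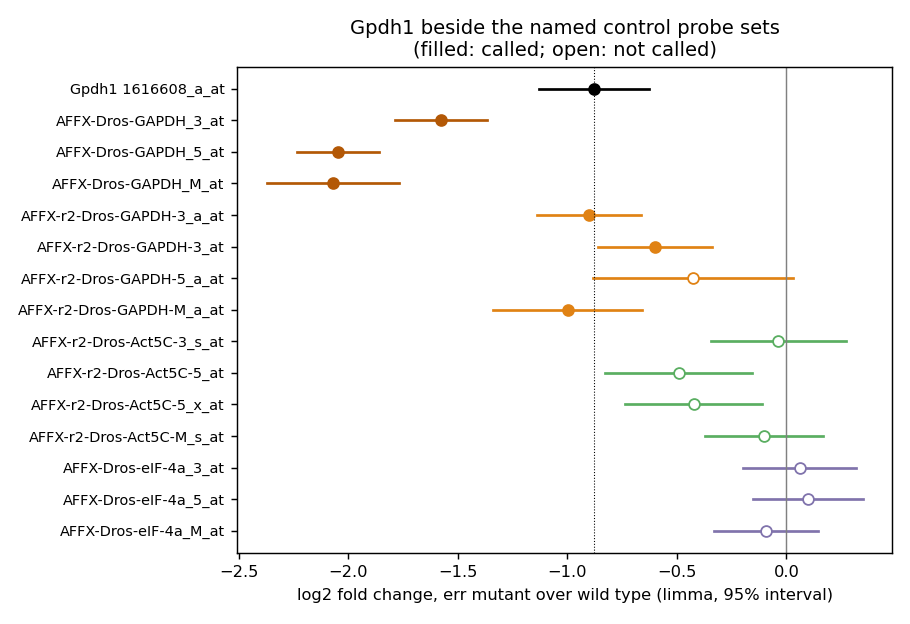
Log2 fold change of err mutant over wild type with its 95% interval (limma) for Gpdh1 and the 14 named controls; filled symbols were called at an adjusted p below 0.05, open symbols were not, and the dotted line marks the value of Gpdh1. The first GAPDH family lies between -2.07 and -1.58, to the left of Gpdh1, while the eIF-4a controls lie between -0.09 and 0.10.

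The GAPDH controls fell into 2 families with unequal change, and 2 controls of the one whose IDs carry "r2" ran close to a probe set of Gpdh1. The control AFFX-r2-Dros-GAPDH-3_a_at read 10863, 9976 and 10973 in the mutant, against 21783, 20004 and 17733 in wild type. On each array this was 95.4% to 101% of the signal of the _a_at probe set of Gpdh1, and 0 of the other tested probe sets lay as near to that over all 6 arrays. Over the 6 arrays its Pearson r with the _a_at probe set was 0.998, higher than that of any other tested probe set. This r is a description over arrays that fall into 2 genotypes. A second control of the family, AFFX-r2-Dros-GAPDH-3_at, read 7678, 6142 and 6861 in the mutant, against 10816, 11079 and 9406 in wild type. It ran at 95.4% to 103% of the third brightest Gpdh1 probe set on each array, and both had a log2 fold change of -0.60. The call of this control was lost without wild type replicate 2 (limma adjusted p = 0.0553).

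The r2 control at the 5' end was dim, at 474, 775.5 and 765.2 in the mutant and 765.6, 962.4 and 926.2 in wild type. It overlapped and was not called (log2 fold change -0.43 ± 0.20, SE, limma adjusted p = 0.211), except after median centring. The middle r2 control read 7229, 5740 and 8314 in the mutant, against 15928, 13551 and 12762 in wild type. It lay at 57.7% to 72.9% of the _a_at probe set of Gpdh1, and the r2 control at the 5' end at 3.50% to 7.80%. In the fit centred on Gpdh1, the 3_a and middle controls of the r2 family were not called different from it. Their differences were -0.02 ± 0.08 (SE, 95% interval -0.19 to 0.15, limma adjusted p = 0.795) and -0.12 ± 0.10 (95% interval -0.35 to 0.10, limma adjusted p = 0.292). The first GAPDH family, by contrast, fell more than Gpdh1 by 0.70 ± 0.10, 1.17 ± 0.13 and 1.19 ± 0.11 at the 3' end, 5' end and middle (log2, SE, limma adjusted p = 0.00017, 4.28e-05 and 1.90e-05). In this first family the 3' control ran closest to the probe set annotated to Gapdh1. Gapdh1 read 5902, 5679 and 5522 in the mutant, against 17877, 16346 and 14226 in wild type, and the first-family 3' control was 80.4% to 95.9% of it on each array. The 5' and middle controls were 45.2% to 79.5% and 49.2% to 95.4% of Gapdh1. Their log2 fold changes were -2.05 and -2.07, against -1.50 for Gapdh1. Gapdh1 fell more than Gpdh1, by 0.62 ± 0.10 (log2, SE, limma adjusted p = 0.000346). RefSeq lists GAPDH among the older names of Gpdh1. Set against the Gapdh1 probe set, AFFX-r2-Dros-GAPDH-3_a_at lay at 122% to 199% of it over the arrays, and AFFX-r2-Dros-GAPDH-3_at at 60.5% to 130%. Both thus ran nearer to a probe set of Gpdh1 than to that of Gapdh1. The IDs do not say which gene the r2 controls were designed on. Their fall is given here as that of controls named GAPDH, of which AFFX-r2-Dros-GAPDH-3_a_at and AFFX-r2-Dros-GAPDH-3_at run close to Gpdh1. It is not given as a fall of glyceraldehyde 3-phosphate dehydrogenase.

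**Figure D4:**
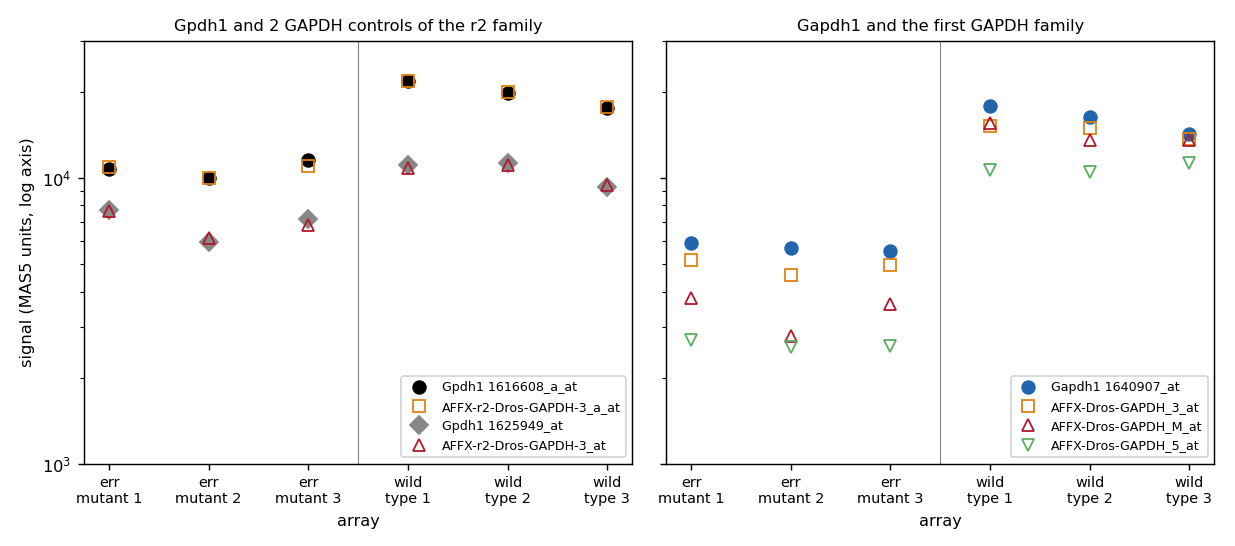
Signal on each array (MAS5 units, log axis), err mutant left of the grey line and wild type right. In the left panel AFFX-r2-Dros-GAPDH-3_a_at and AFFX-r2-Dros-GAPDH-3_at lie on the symbols of the _a_at and the third brightest probe set of Gpdh1, at 95.4% to 103% of their signals. The other r2 controls are not shown. In the right panel the first GAPDH family is shown with the probe set of Gapdh1.

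The enzymes that make or use glycerol 3-phosphate gave 1 call beside Gpdh1, among 4 tested. Of 8 listed genes 7 had a probe set of their own, counting Gpdh1. Of those, 5 passed the filter on dim signals, 2 were called lower, 0 higher, and 3 were not called. The 4 tested beside Gpdh1 had log2 fold changes of 0.65 ± 0.62 (Gpdh3), 0.59 ± 0.39 (Gpo2), 0.44 ± 0.14 (Gk2) and -0.67 ± 0.13 (Gk1, all SE). Their median was 0.51, against 0.05 over all tested probe sets. It rests in part on Gpdh3 and Gpo2, which lay near or below the background line, and is not read as a rise of these enzymes. The median was 0.28 after median centring and 0.33 after hybridization-control centring. It was -0.11 with the filter on dim signals set at the 50th percentile, which left 2 of them, Gk1 and Gk2. With an unadjusted p below 0.05 and no call was Gk2 alone, at 0.0157. Over all named genes, each by its brightest probe set, 15.2% were called, 7.1% lower and 8.12% higher.

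Besides Gpdh1, the call in this list was Gk1, which like Gk2 encodes a glycerol kinase that forms glycerol 3-phosphate from glycerol. Gk1 read 1494, 1159 and 1535 in the mutant, against 2320, 2009 and 2276 in wild type, without overlap. Its log2 fold change was -0.67 ± 0.13 (SE, limma adjusted p = 0.0122), and the call was lost without wild type replicate 1 or 3. Gk2 read 2496, 1761 and 2495 in the mutant, against 1679, 1566 and 1685 in wild type. These did not overlap either, in the opposite direction, but the limma adjusted p was 0.0884. Without err mutant replicate 2, whose Gk2 signal was the lowest of the 3, it was 0.0036. The 2 paralogs of Gpdh1, Gpdh2 and Gpdh3, were dim. Gpdh2 read 3.6 to 52.1 and Gpdh3 16.1 to 51.2 over all 6 arrays, and no array of either lay above its background line. Of the mitochondrial enzymes that oxidise glycerol 3-phosphate, Gpo2 was above the line on 1 of 3 arrays of each genotype and Gpo3 on none. Gpo1, another of them, was not analysed here.

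Glycolytic genes, by contrast, were mostly lower, and several fell further than Gpdh1. Of 14 listed genes 11 were measured. Of these, 10 were called lower, among them the gluconeogenic gene fbp, and 1, Hex-C, was not called. The median log2 fold change was -1.38. Over all named genes 7.1% were called lower and 8.12% higher, with a median of 0.04. In the fit centred on Gpdh1, 6 of the 11 fell more than Gpdh1, against 0.806% of all probe sets in that fit, and 2 fell less or did not fall. Those 6 were Pgi, Pfk, Tpi, Gapdh1, Pgk and Eno. Ldh, PyK and Gapdh2 were not analysed here.

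Pfk, the phosphofructokinase that commits sugar to glycolysis, read 522.3, 601.6 and 504.5 in the mutant, against 5561, 4546 and 5137 in wild type. It fell 9.36-fold, and its log2 change minus that of Gpdh1 was -2.35 ± 0.17 (SE, limma adjusted p = 3.91e-06). Pgi, phosphoglucose isomerase, fell 7.66-fold, to 1478 ± 62.9 in the mutant, against 11337 ± 888.6 in wild type (SD, n = 3). Tpi, triose phosphate isomerase, interconverts the substrate of Gpdh1 with glyceraldehyde 3-phosphate. It read 3935, 3612 and 3521 in the mutant, against 14415, 14980 and 13122 in wild type, a 3.84-fold fall. Pgk and Eno, which act later in the pathway, fell 4.07-fold and 2.60-fold, while Pglym78 acts between them and fell less than Gpdh1. No array of these genes overlapped with the other genotype.

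Ald1, an aldolase that produces the substrate of Gpdh1, gave unequal values in its 2 probe sets. The brighter one by mean log2 signal fell 1.64-fold (limma adjusted p = 0.00209), and its change was not called different from that of Gpdh1 (difference 0.16 ± 0.14, SE, 95% interval -0.14 to 0.47). The other fell 3.70-fold, more than Gpdh1 by 1.01 ± 0.11 on the log2 scale (limma adjusted p = 5.14e-05). The hexokinase Hex-A fell 1.80-fold, with a difference from Gpdh1 of 0.03 ± 0.18 (log2, SE, 95% interval -0.38 to 0.43). For fbp, a gluconeogenic phosphatase, the log2 fold change was -0.58, and its difference from Gpdh1 was 0.29 ± 0.13 (SE, limma adjusted p = 0.0566). The call of fbp was lost without wild type replicate 1. Pglym78, a phosphoglycerate mutase, fell 1.33-fold (limma adjusted p = 0.0434), and the call was lost when any array other than err mutant replicate 2 was left out. The hexokinase Hex-C read 875 ± 57.6 in the mutant, against 898 ± 169 in wild type.

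A list drawn up for NAD redox shuttles had 6 measured members, of which 3 were called lower and 0 higher. Over all named genes 7.1% were called lower and 8.12% higher. The 3 called, Mdh1, Got1 and Got2, are the measured enzymes of the malate-aspartate shuttle, and the other 3 are not part of it. The list was drawn up without this split. Mdh1, cytosolic malate dehydrogenase, reoxidises NADH in the malate-aspartate shuttle. It read 8699, 8076 and 7957 in the mutant, against 15844, 14111 and 13937 in wild type. It fell 1.77-fold, and the difference from Gpdh1 was 0.05 ± 0.10 (log2, SE, 95% interval -0.16 to 0.27). Got1, an aspartate aminotransferase, fell 2.60-fold, more than Gpdh1 by 0.50 ± 0.14 (limma adjusted p = 0.00717). Got2, a second aminotransferase, fell 1.38-fold (limma adjusted p = 0.0256), and less than Gpdh1. The call of Got2 was lost without any 1 of 4 arrays, err mutant replicate 2 or 3 or wild type replicate 1 or 2. The 3 genes not called were Idh, an isocitrate dehydrogenase, and the malic enzymes Men and Men-b, which had limma adjusted p values of 0.984, 0.214 and 0.347. Mdh2 was not analysed here.

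Genes of glycerolipid synthesis and storage, downstream of glycerol 3-phosphate, had calls in both directions. The list also holds bmm, a triglyceride lipase, and Lsd-2, a lipid droplet protein. Of 11 listed, 10 were tested, 3 were called lower, 1 higher and 6 were not called, with a median log2 fold change of -0.21. Over all named genes 7.1% were called lower and 8.12% higher, with a median of 0.04. The acyltransferases that act directly on glycerol 3-phosphate were not called. Gpat4 read 2160 ± 343 in the mutant, against 2412 ± 76.2 in wild type (limma adjusted p = 0.419), and mino read 2458 ± 204 in the mutant, against 1954 ± 123 in wild type, without overlap (limma adjusted p = 0.0667). In the next step, acylation of lysophosphatidate, Agpat2 read 1871, 2200 and 1823 in the mutant, against 950.4, 1088 and 1013 in wild type. It rose 1.93-fold (limma adjusted p = 0.00107). Agpat4 fell 1.87-fold (limma adjusted p = 0.0261), and without any single wild type array its call was lost. The triglyceride-forming acyltransferase mdy fell 1.51-fold (limma adjusted p = 0.00748). Lsd-2 fell 1.47-fold (limma adjusted p = 0.0133), and its call was lost without wild type replicate 1 or 3.

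**Figure D5:**
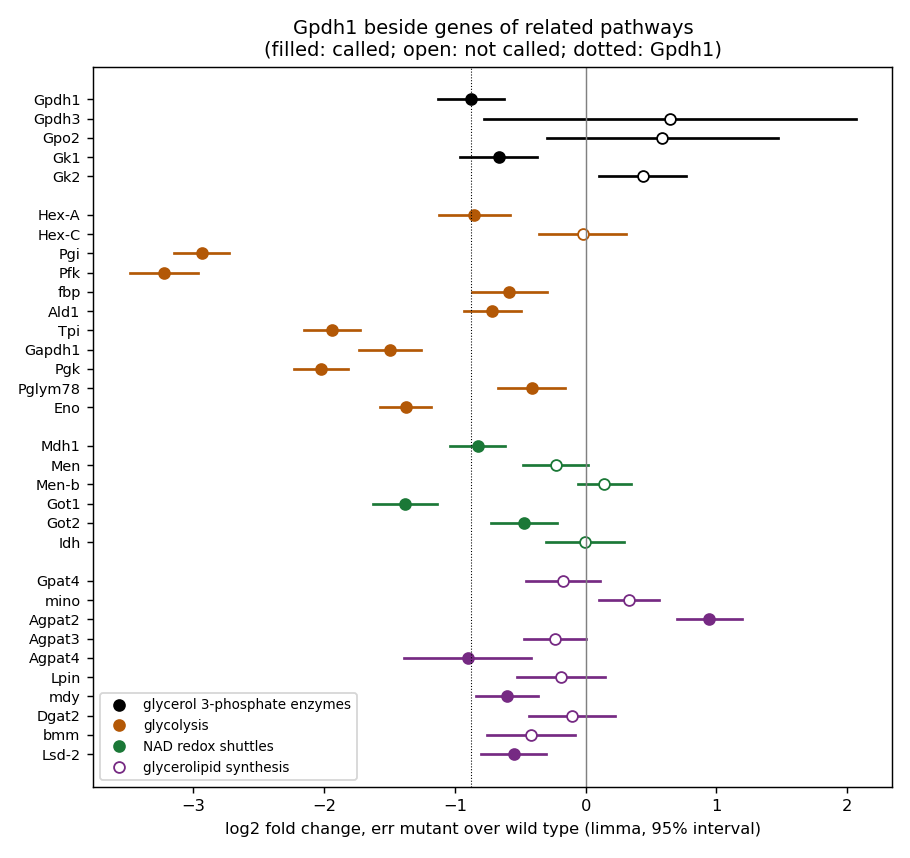
Log2 fold change of err mutant over wild type with its 95% interval (limma) for the tested genes of 4 lists, 1 probe set per gene; filled symbols were called, open symbols were not, and the dotted line marks Gpdh1 at -0.88. Pfk and Pgi lie furthest left, at -3.23 and -2.94, and Agpat2 is the called gene on the right, at 0.95.

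Markers of larval tissues were measured beside Gpdh1, since the pools were whole animals. Of the muscle markers 4 of 6 were measured and 0 were called. Their summed signal was 43754 to 49245 in the mutant and 45132 to 50507 in wild type. Of the midgut markers 3 of 4 were measured, with 0 calls and sums of 41545 to 50438 in the mutant and 41614 to 54609 in wild type. Of the neuron markers 3 of 4 were measured, with 0 calls and sums of 434 to 638 in the mutant and 368 to 518 in wild type. Over all named genes 15.2% were called, so 0 calls among so few markers say little about tissue content. With an unadjusted p below 0.05 and no call was brp alone among all these markers, at 0.0438, in its brightest probe set. That probe set was higher in the mutant without overlap (log2 fold change 0.74 ± 0.31, SE). A dimmer brp probe set was lower in the mutant without overlap (-0.38 ± 0.35, limma adjusted p = 0.537), and the remaining ones overlapped. The 3 fat body markers measured of 6 (Lsp2, Fbp1 and Fbp2), which are storage protein and late larval genes, gave sums of 74.1 to 267 in the mutant and 58.7 to 111 in wild type. Fbp1 and Fbp2 were below the background line on every array, and Lsp2 was above it on 2 of 3 mutant arrays and 1 of 3 wild type arrays. They give no reading of fat body content at this stage. The part of tissue content in the Gpdh1 difference was not tested.

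The genes whose values over the 6 arrays were most like those of Gpdh1 were named by Pearson r of log2 signals, among tested probe sets with 1 gene symbol. The arrays form 2 genotypes, so r mainly ranks genes by how cleanly they share the genotype difference, and it is given as a description. The 8 highest were CG8036 (0.998), Nop10 (0.996), Enoph (0.995), CG15715 (0.995), CG30196 (0.995), CG15097 (0.994), mRpS11 (0.993) and CG3819 (0.993). CG8036 read 5773, 5029 and 6518 in the mutant, against 16596, 15280 and 13191 in wild type. Within each genotype its arrays had the order of those of Gpdh1, but so had bright probe sets that were not called, such as the Act5C control at the 3' end and Mlc1. CG8036 fell 2.61-fold, more than Gpdh1 by 0.50 ± 0.09 on the log2 scale (SE, limma adjusted p = 0.000738). Nop10 encodes a protein of the complex that modifies ribosomal RNA, and mRpS11 a mitochondrial ribosomal protein; they fell 1.71-fold and 1.46-fold. Beside Gpdh1 itself 324 tested probe sets had r above 0.95, of which 288 were called lower, and 17 had r above 0.99. Over all tested probe sets 6.13% were called lower. A high r with Gpdh1 itself selects probe sets that are lower in the mutant, so the 288 are not a separate result. At the other end, dbr and Ugt35B1 had the lowest r, at -0.9995 and -0.9986. The gene dbr read 584.5, 619.3 and 559 in the mutant, against 359, 377.2 and 418.1 in wild type. Ugt35B1, a UDP-glycosyltransferase, rose 4.72-fold, to 621 ± 140 in the mutant, against 132 ± 30.9 in wild type (SD, n = 3).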

How the data were processed

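For each array the deposited file holds linear intensity values of all probe sets, which the authors made with MAS5, per the submitters' processing notes, in a version not given in the sources used here. On every array the values trimmed by 2% average 500. Symbols came from the platform annotation, updated through gene IDs to RefSeq (13544 of 13647 probe sets with 1 symbol matched). Of the rest 402 had several symbols and 4720 none, and these were not named.

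The log2 of these values went into limma 3.58.1 under R 4.3.3 (eBayes with a mean-variance trend, no replicate block, 2-sided), over the 13138 non-control probe sets that passed a filter on the mean log2 value at its 30th percentile, a signal of 24.7. A call is a Benjamini-Hochberg adjusted p below 0.05. The control and list probe sets were read from the same kind of fit, and a further fit used log2 values minus those of the _a_at probe set of Gpdh1. A gene was represented by its brightest probe set by mean log2 value. The background line was the 95th percentile of 117 dim control probe sets. Scripts were tested on simulated data, and figures were drawn with matplotlib 3.10.9.

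Named were the probe set itself, the 14 controls, the listed genes, and the genes with the 8 highest and 2 lowest r. The probe set and lists were chosen with earlier results of these data known. The relative fit, the match of controls to Gpdh1 and Gapdh1, the other Gpdh1 probe sets, the brightest 2% and the genomic neighbours were added after the values were seen. Older names in the lists that belonged to another gene were not used. Per the labels each pool is a biological replicate; at most 0.332% of the values were identical between 2 arrays. The number of arrays limits the precision. Pools with the same replicate number did not deviate from their group means together (correlations of -0.04, 0.10 and -0.07 for numbers 1, 2 and 3), so the numbers were not taken to pair them.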

Additional observations from a re-analysis of the deposited data

How the results depend on the processing

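The fall of Gpdh1 kept its direction and its call under all 16 alternative limma fits, with log2 fold changes of -1.11 (median centring) to -0.74 (quantile normalization) and limma adjusted p of 2.57e-05 to 0.0206, the highest of them without the variance trend. The exact permutation test of the same difference, -0.88, cannot go below 0.1. Leaving out 1 array gave -0.96 to -0.80, with adjusted p of 0.00228 to 0.012. The median of all tested probe sets was 0.05 as deposited, -0.06 with quantile normalization, -0.17 with median centring and -0.13 with hybridization-control centring. Relative to it Gpdh1 lay at -0.68 with quantile normalization and at -0.93 with the other three. With the replicate block, for numbers that share no known pairing, Gpdh1 had an adjusted p of 0.00503 and all probe sets gave 1342 calls against 1773 without it.

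Signs changed for probe sets near 0. With median centring eIF-4a read -0.167 (3') and -0.130 (5'), Men-b -0.0848 and ERR -0.153. With hybridization-control centring these were -0.119, -0.0817, -0.0366 and -0.105. With quantile normalization the middle eIF-4a control read 0.0932, Act5C 0.0780 (3') and 0.0964 (middle), Idh 0.184 and ERR -0.109. Leaving out 1 array gave -0.155 to 0.0745 for Act5C 3', -0.139 to 0.121 for Hex-C, -0.0999 to 0.0977 for Idh, -0.182 to 0.260 for ERR and -0.00448 to 0.0389 for Gpdh1 relative to AFFX-r2-Dros-GAPDH-3_a_at. Of 49 single probe sets 15 changed their call under at least 1 alternative. The dimmest Gpdh1 probe set passed at a limma adjusted p of 0.0356 after median centring and 0.0308 after hybridization-control centring.

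All calls numbered 935 without the variance trend (370 lower, 565 higher) and 651 with a 2-fold minimum, against 1773 (805 and 968). Median centring gave 1265 lower and 520 higher calls, and hybridization-control centring 503 higher. Leaving out 1 array, where tests have fewer arrays, gave 981 to 1777 calls, 428 to 837 lower and 553 to 940 higher. Of the glycerol 3-phosphate enzymes 1 was called lower without the variance trend, and 1 to 2 lower and 0 to 1 higher with 1 array left out. Of glycerolipid synthesis 1 was called lower without the variance trend, 1 to 3 with 1 array left out, and 2 higher after quantile normalization. The causes were not tested.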

Other observations

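Of the 4 neighbours of Gpdh1 that were tested, 0 were called lower. Over all tested probe sets 6.13% were called lower and 7.37% higher, so 0 of 4 says little about this stretch of the chromosome. RefSeq (release 6) places Gpdh1 on chromosome arm 2L and ERR on 3L. Of the 3 nearest genes with a probe set on each side, CG9044 was the called one, and it was higher. CG9044 read 466.1, 609.9 and 443.4 in the err mutant pools, against 301.7, 292.3 and 356.4 in the wild type pools (1.59-fold, limma adjusted p = 0.0272). CG9016, CG13999 and CG13998 were not called, with unadjusted p of 0.0402, 0.746 and 0.273. The other two of these 6, dsf and Sfp26Ad, were below the background line on every array and were not tested.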
